A study of Mus musculus with 24 samples.

Results

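The genes described are 10 members of the BCL-2 family, which decide whether the mitochondria of a cell stay intact or release the signals that kill it. They were found in the deposited tables by their symbols, and all 10 are among the 48526 genes listed and the 14560 that passed the filter on low counts. The RNA came from CD8 T cells of OT-1 mice, in which CD8 T cells recognise a peptide of ovalbumin through a transgenic receptor. Splenocytes were cultured with the peptide, and the T cells were then isolated by magnetic removal of the other cells. The groups are peptide plus a TLR7 agonist (TLR7), peptide plus a TLR2 agonist (TLR2) and peptide alone (OVA), each at 72 h and at 24 h, with 4 libraries a group and 24 in all. Every group received the peptide, and there is no unstimulated group. TLR2 senses bacterial lipopeptides and TLR7 senses single-stranded RNA. The labels list Pam3CSK4, which acts on TLR2, and gardiquimod and R848, which both act on TLR7, but do not say which of these 2 the sequenced TLR7 groups received. Because whole splenocytes were cultured, the agonist could reach the other spleen cells as well as the T cells, and in sorted bulk RNA fewer cells of a type and less RNA per cell cannot be told apart.

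The family has 3 working parts. BH3-only proteins are the sensors of stress and lost growth factors; Bcl2l11 (BIM), Bbc3 (PUMA) and Pmaip1 (NOXA) belong to them. Prosurvival proteins hold the sensors and the effectors in check; Bcl2, Bcl2l1 (BCL-XL), Mcl1 and the A1 proteins of Bcl2a1b and Bcl2a1d belong to them. Bax and Bak1 are the effectors that open the outer mitochondrial membrane when they are released. In T cells, BIM is known as the main trigger of death when the response to an antigen contracts, BCL-XL and A1 are known to be induced by activation, and BCL-2 and MCL-1 are known to keep naive and memory cells alive.

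Library totals ran from 10.5 to 27.1 M counts, and 5 libraries held less than 60% of the median total: OVA 24 h replicate 4, TLR2 24 h replicate 4, TLR7 24 h replicate 2 and TLR7 72 h replicates 1 and 2. The libraries also did not fall simply by time. On the first principal component of log2 CPM (the count as a share of the TMM-scaled library total), which held 60.2% of the variance, 8 libraries lay between the 24 h and the 72 h sides. These middle libraries were TLR2 72 h replicates 1, 3 and 4, OVA 72 h replicate 4, TLR7 24 h replicates 3 and 4, and OVA 24 h replicates 1 and 3. The 9 CD8 T cell markers were all expressed, with summed levels from 2013 to 4465 CPM over the 24 libraries. Their expression does not show how pure the isolated cells were. The summed level of 12 B cell markers was 138 to 278 CPM in TLR7 72 h, 285 to 586 CPM in TLR2 72 h and 383 to 753 CPM in OVA 72 h; at 24 h it was 377 to 579 CPM in TLR7, 636 to 711 CPM in TLR2 and 432 to 963 CPM in OVA. Most of it was Ighm at 72 h; without Ighm the sums at 72 h were 8.07 to 11.7 CPM in TLR7, 11.1 to 131 CPM in TLR2 and 11.2 to 66.0 CPM in OVA. At 24 h they were 41.6 to 70.6 CPM in TLR7, 159 to 214 CPM in TLR2 and 128 to 326 CPM in OVA.

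Across the 6 groups, 8 of the 10 members differed at an adjusted p under 0.05 in edgeR's quasi-likelihood F test, where 63.3% of all genes tested did. Bax (adjusted p = 0.606) and Bak1 (adjusted p = 0.857), the 2 effectors, were the members that did not pass. The call for Bcl2l1 was lost without OVA 72 h replicate 2, at an adjusted p of 0.0642. Without the 5 shallow libraries 4 members passed, in a fit that called 4519 of 14949 genes.

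The members called between agonist groups by edgeR were called at 72 h. Bcl2l11 and Bcl2a1b were lower in TLR7 than in OVA, which is 2 of 10 members, where 3.62% of all genes were called and 3.21% were called lower. In TLR7 against TLR2 at 72 h, Bcl2l11, Bcl2a1b and Bcl2a1d were lower, 3 of 10 members, where 4.8% of all genes were called and 3.94% were called lower. The remaining comparisons between agonist groups called 0 of the 10 members in edgeR. In TLR2 against OVA, 0% of all genes were called at 72 h and 0% at 24 h, and the members at an unadjusted p under 0.05 numbered 0 at 72 h and 3 at 24 h; DESeq2 called 0 members at either time. In TLR7 against OVA at 24 h, 0.22% of all genes were called, and 0 members had an unadjusted p under 0.05 or were called by DESeq2. In TLR7 against TLR2 at 24 h, 1.24% of all genes were called, and 3 members reached 0.05 before adjustment. DESeq2 called 1016 of 14560 genes and 1 of these members, Bbc3 (log2 fold change 1.96, adjusted p = 0.0372). Without the middle libraries, which hold the 2 high TLR7 values of Bbc3, its log2 fold change was 0.69 in edgeR (adjusted p = 0.775). TLR7 and TLR2 did not overlap at 24 h for 1 member, Bcl2a1b (85.3 to 117 CPM in TLR7 and 138 to 148 CPM in TLR2), beside 14% of all genes.

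**Figure D1:**
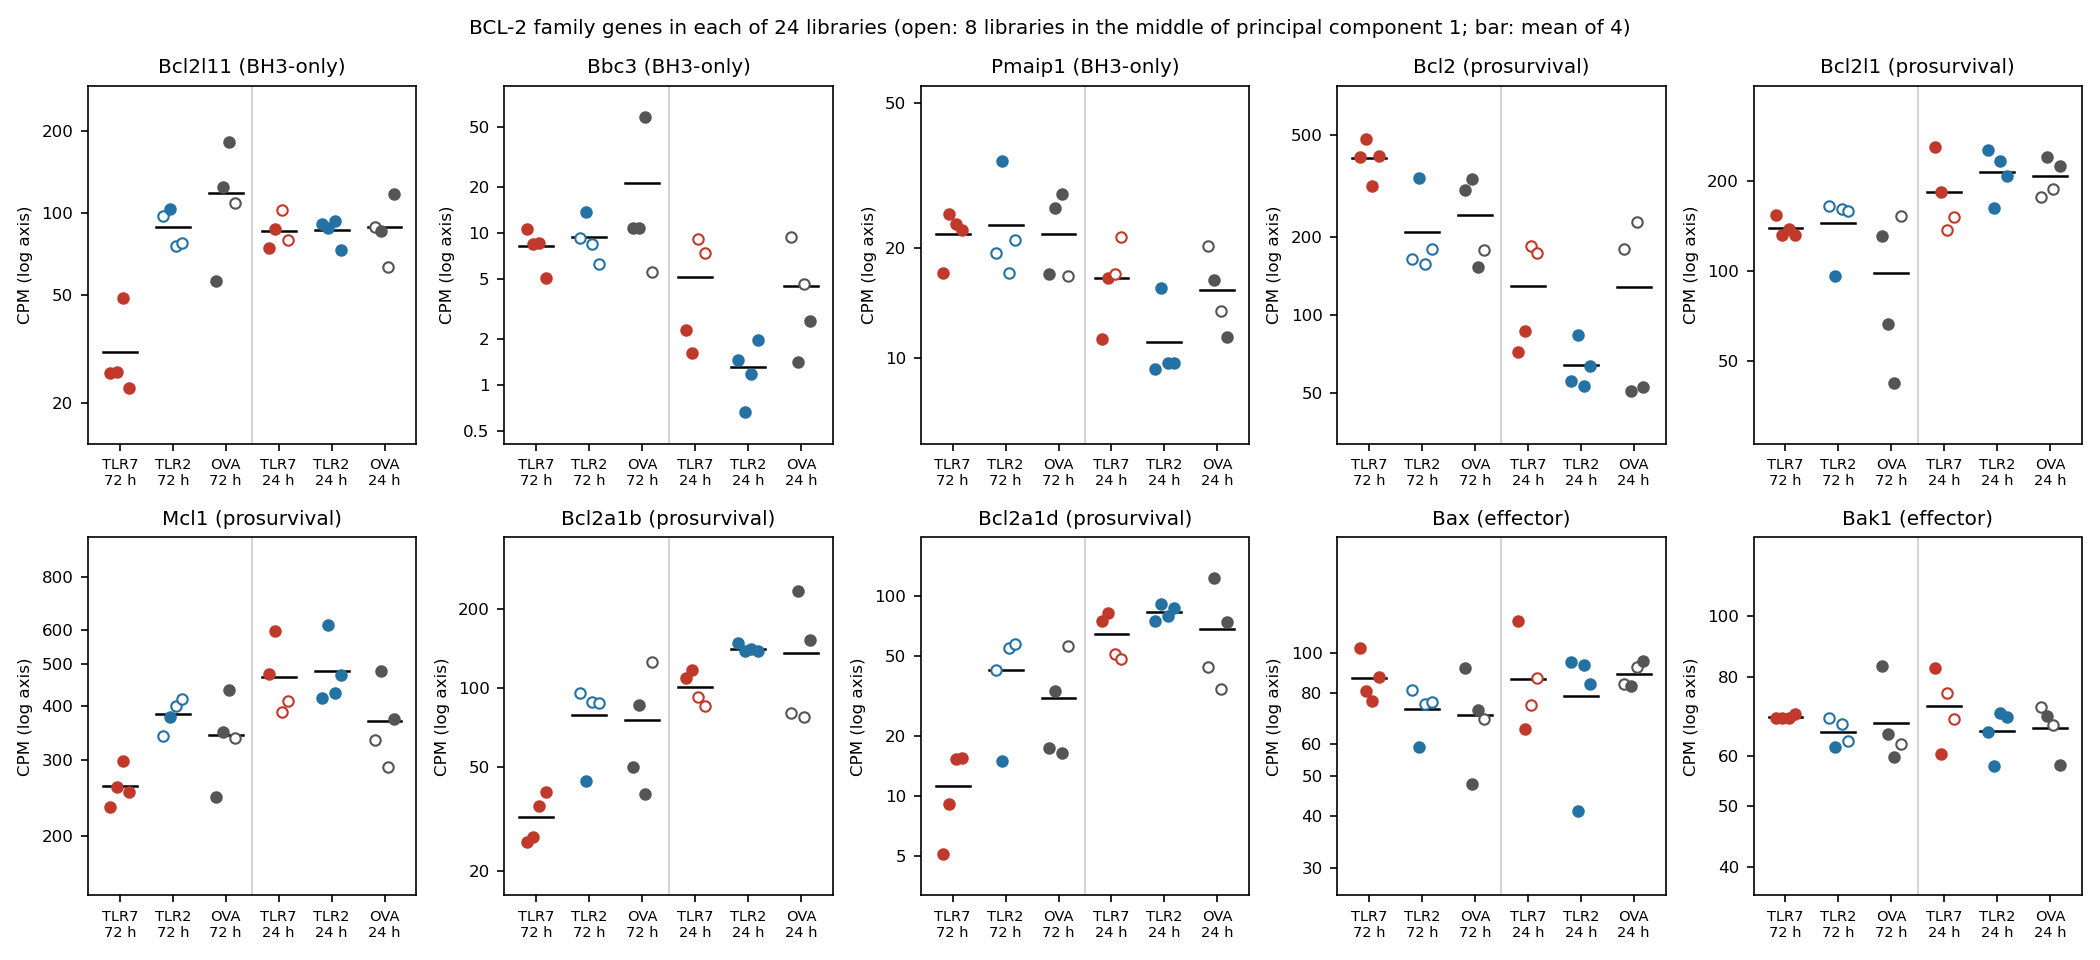
Level of each of the 10 genes in every library, in CPM on a log axis, by agonist group and time; each point is 1 library, open points are the 8 middle libraries and bars are means of 4. Bcl2l11 in the 4 TLR7 72 h libraries sits at 22.8 to 48.7 CPM, under all other 20 libraries, while Bak1 averages 65.3 to 71.8 CPM in every group.

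Per kilobase of annotated exon, the members spanned a wide range, and their order changed with time. In TLR7 72 h the mean level was 76.3 CPM per kb for Mcl1, 55.0 for Bax, 44.3 for Bcl2, 39.2 for Bcl2a1b, 30.4 for Bcl2l1, 28.7 for Bak1, 13.1 for Bcl2a1d, 3.85 for Bbc3 and 3.84 for Bcl2l11. In TLR7 24 h Mcl1, at 137, and Bcl2a1b, at 123 CPM per kb, led, and Bcl2, at 14.1, stood below both effectors. TLR2 24 h libraries had the highest group mean of Bcl2a1b, 173 CPM per kb, and the lowest of Bcl2, 6.98 CPM per kb. Among prosurvival transcripts, with the A1 genes counted apart, the mean of Bcl2 ranked second in TLR7 72 h. There its libraries, at 34.4 to 52.8 CPM per kb, overlapped those of Bcl2a1b, at 31.7 to 49.0 CPM per kb. At 24 h the mean of Bcl2 ranked last in each of the 3 groups.

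Bcl2l11, which encodes BIM, lies on mouse chromosome 2 (GRCm38, 128126038 to 128162547, plus strand). In TLR7 72 h it measured 25.9, 26.0, 48.7 and 22.8 CPM, against 97.2, 103, 75.8 and 77.6 CPM in TLR2 72 h and 56.3, 125, 183 and 109 CPM in OVA 72 h. All 4 TLR7 libraries lay below every library of the other groups at that time. At 24 h the means were 86.2 ± 12.3 CPM in TLR7, 86.6 ± 9.06 CPM in TLR2 and 88.9 ± 22.0 CPM in OVA (SD, n = 4 each), and the groups overlapped. The 4 TLR7 72 h libraries also lay below all 12 libraries at 24 h.

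The log2 fold change of Bcl2l11 in TLR7 against OVA at 72 h was -1.93 (SE 0.28, adjusted p = 0.00191 by edgeR). The call held when any 1 of the 8 libraries was left out, and without the middle libraries, at -1.89 (adjusted p = 0.00927). It was lost without the shallow libraries, at -1.72 (adjusted p = 0.218), which leaves 2 libraries in TLR7 72 h. It was also lost with only these 2 groups in the fit, at -1.91 (adjusted p = 0.0643). Those fits called 0 of 14949 and 29 of 13269 genes. Against TLR2 at 72 h the log2 fold change was -1.52 (SE 0.28, adjusted p = 0.0133). That call was lost without TLR2 72 h replicate 1 (adjusted p = 0.0507) and without TLR7 72 h replicates 1, 2 or 4 (adjusted p = 0.0734, 0.0632 and 0.0854). The log2 fold changes were -1.39 to -1.45. In the same order, those fits called 1, 1, 0 and 0 of all genes tested, against 699 with all libraries. The call was also lost without the shallow libraries, at -1.31 (adjusted p = 0.365), in a fit that called 0 of 14949 genes. Without the middle libraries, which leaves 1 library in TLR2 72 h, the log2 fold change was -1.70 and the call was lost as well.

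The change with the TLR7 agonist also differed between the times. The TLR7 effect on Bcl2l11 at 72 h minus that at 24 h was -1.89 on the log2 scale (SE 0.39, adjusted p = 0.0272), the 1 member called of 10, where 0.81% of all genes were. The call was lost in 7 of 16 fits that left out 1 library, which called 0 to 30 of all genes tested, against 118 with all libraries. The libraries were OVA 72 h replicate 2, TLR7 72 h replicates 1, 2 and 4, TLR7 24 h replicate 3, and OVA 24 h replicates 2 and 3. The values were -1.69 to -1.82, with adjusted p of 0.0570 to 0.0874. The difference was -1.61 (adjusted p = 0.155) without the middle libraries. For the TLR2 effect, 0 of 10 members and 0% of all genes were called by edgeR; 0 members were called by DESeq2, and 0 reached 0.05 before adjustment.

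The promoter of Bcl2l11 is shown because FOXO factors, which bind forkhead motifs, are known to drive this gene when growth factors are withdrawn. The bases before the first of its 2 RefSeq starts (GRCm38.p6, chr2:128125788-128126037, plus strand, 5′ to 3′) hold 1 match to the forkhead letters TGTTTAC, read here on the opposite strand and set in capitals.
Bcl2l11 promoter: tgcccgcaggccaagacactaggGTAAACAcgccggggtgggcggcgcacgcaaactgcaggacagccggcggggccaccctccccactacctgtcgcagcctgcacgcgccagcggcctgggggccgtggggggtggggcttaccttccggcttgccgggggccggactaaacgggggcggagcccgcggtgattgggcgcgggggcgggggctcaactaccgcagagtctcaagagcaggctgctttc
The match starts 227 bases before the start, and the window of the other start holds none. Among the 9 members searched, Bbc3 also holds these letters, 167 bases before a start of that gene. Of 32851 mouse promoters of 300 bases in RefSeq (250 before to 50 after the start, both strands searched), 3.65% hold these letters. The match is a description of the sequence, and no factor's binding was measured here.

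Bbc3, which encodes PUMA, was the least abundant member per kilobase in 4 of the 6 groups. It measured 10.5, 8.51, 8.56 and 5.08 CPM in TLR7 72 h, 9.19, 13.8, 8.49 and 6.28 CPM in TLR2 72 h, and 10.8, 10.7, 57.7 and 5.50 CPM in OVA 72 h. At 24 h it measured 2.28, 1.62, 9.16 and 7.35 CPM in TLR7, 1.46, 0.660, 1.18 and 1.97 CPM in TLR2, and 9.36, 1.41, 4.62 and 2.65 CPM in OVA. The 4 highest values at 24 h are those of the 4 middle libraries. OVA 72 h replicate 3, at 57.7 CPM, stood far above the rest of its group. Bbc3 rose at 72 h against 24 h in TLR2 by 2.87 (SE 0.71, adjusted p = 0.00886) and in OVA by 2.22 (SE 0.66, adjusted p = 0.0350) on the log2 scale. In TLR7 the difference of 0.65 did not pass (adjusted p = 0.416), and without the middle libraries it was 2.03 (adjusted p = 0.0159).

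Pmaip1, which encodes NOXA, a sensor that binds MCL-1 and A1, varied less. It ran from 17.1 to 24.7 CPM in TLR7 72 h, 17.1 to 34.7 CPM in TLR2 72 h and 16.7 to 28.1 CPM in OVA 72 h, and at 24 h from 11.3 to 21.4 CPM in TLR7, 9.31 to 15.5 CPM in TLR2 and 11.4 to 20.3 CPM in OVA. The 3 groups at 72 h overlapped. In TLR2, Pmaip1 was 19.4, 34.7, 17.1 and 21.0 CPM at 72 h against 9.31, 15.5, 9.65 and 9.66 CPM at 24 h, with no overlap, and rose by 1.06 on the log2 scale (SE 0.26, adjusted p = 0.00856). Without the middle libraries, which leaves 1 library at 72 h, the value was 1.68 (adjusted p = 0.000376).

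Bcl2a1b and Bcl2a1d encode A1 proteins, which bind BIM and NOXA, and lie on chromosome 9 (GRCm38, 89199209 to 89207827 on the plus strand and 88723285 to 88731914 on the minus strand). They are near-identical copies, so the counting could split reads between them, and the first bases of their coding sequences, with the differing bases in capitals, show how alike they are.
Bcl2a1b coding sequence, bases 1 to 120: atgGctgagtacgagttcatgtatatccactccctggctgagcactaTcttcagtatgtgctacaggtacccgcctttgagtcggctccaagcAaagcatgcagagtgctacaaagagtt
Bcl2a1d coding sequence, bases 1 to 120: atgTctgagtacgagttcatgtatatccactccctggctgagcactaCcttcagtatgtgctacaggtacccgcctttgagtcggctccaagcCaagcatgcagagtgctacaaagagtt
There are 3 differences in this window and 6 over the 516 coding bases, an identity of 98.84%, with 217 bases in the longest run without a difference. Bcl2a1a differs from Bcl2a1b at 11 coding bases and from Bcl2a1d at 7. Their promoters share a run of 84 identical bases, and neither TGTTTAC nor the STAT letters TTCNNNGAA, which 8.3% of promoters hold, is in these 2 windows.

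Both A1 genes were on average lowest in TLR7 72 h, and their lowest values there were those of the shallow replicates 1 and 2. Bcl2a1b measured 25.9, 26.8, 35.5 and 40.1 CPM in TLR7 72 h, 95.7, 44.2, 88.1 and 87.4 CPM in TLR2 72 h, and 49.9, 86.1, 39.5 and 125 CPM in OVA 72 h. Bcl2a1d measured 5.12, 9.17, 15.3 and 15.5 CPM in TLR7 72 h, 42.8, 14.9, 54.9 and 57.1 CPM in TLR2 72 h, and 17.3, 33.3, 16.4 and 56.0 CPM in OVA 72 h. The highest TLR7 value of Bcl2a1b lay just over the lowest OVA value, and that of Bcl2a1d just over the lowest TLR2 value, while the other pairs did not overlap. In TLR2 72 h the 3 middle libraries carried the high values of both genes and replicate 2 the low ones. The sum of the 4 A1 genes, which does not depend on how reads were split among them, was 31.1 to 56.0 CPM in TLR7 72 h, 59.5 to 146 CPM in TLR2 72 h and 56.1 to 183 CPM in OVA 72 h.

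Bcl2a1b fell in TLR7 against OVA at 72 h by 1.23 on the log2 scale (SE 0.34, adjusted p = 0.0485). That call was lost without OVA 72 h replicates 2 or 4 or any 1 of the 4 TLR7 libraries, with values of -0.81 to -1.32 and adjusted p of 0.0669 to 0.235, and without the middle library of OVA 72 h and those elsewhere it was -0.81 (adjusted p = 0.0950). With the replicate number as a block its adjusted p was 0.0724. The fits that lost the call with a library left out called 92 to 545 of all genes tested, against 527 with all libraries. Bcl2a1d, at -1.43 (SE 0.45, adjusted p = 0.0784), did not pass with all libraries in edgeR. DESeq2 called it with all libraries, at -1.38 (adjusted p = 0.0354), where it called 934 of 14560 genes. It passed without OVA 72 h replicate 1, at -1.57 (adjusted p = 0.0428), in a fit that called 1370 of 14778 genes. The groups did not overlap for 2 of the 10 members, Bcl2l11 and Bcl2a1d, where 8.7% of all genes did not. The TLR7 effect at 72 h minus that at 24 h did not pass for either A1 gene, at -0.80 for Bcl2a1b (adjusted p = 0.429) and -1.33 for Bcl2a1d (adjusted p = 0.300).

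Against TLR2 at 72 h, Bcl2a1b was lower by a log2 fold change of -1.30 (SE 0.34, adjusted p = 0.0381) and Bcl2a1d by -1.89 (SE 0.46, adjusted p = 0.0270). Bcl2a1b lost its call without TLR2 72 h replicates 1, 3 or 4 or any 1 TLR7 library (-1.17 to -1.43, adjusted p of 0.0529 to 0.139). Bcl2a1d lost its call without TLR2 72 h replicates 1, 3 or 4 or TLR7 72 h replicates 1, 2 or 4 (-1.65 to -2.09, adjusted p of 0.0771 to 0.115). Those fits called 0 to 581 of all genes tested, against 699 with all libraries. Without the shallow libraries the values were -1.06 for Bcl2a1b and -1.46 for Bcl2a1d (adjusted p = 0.379 and 0.368), in a fit that called 0 of 14949 genes. Without the middle libraries the values were -0.41 and -0.33 (adjusted p = 0.701 and 0.827), in a fit that leaves 1 TLR2 72 h library. A1 genes are also expressed in B cells and myeloid cells, and the B cell marker sums given above were lowest in TLR7 72 h too. The summed level of 10 macrophage and monocyte markers, 7 of which averaged under 1 CPM, was 4.21 to 8.29 CPM in TLR7 72 h, 8.62 to 13.3 CPM in TLR2 72 h and 5.97 to 75.9 CPM in OVA 72 h. The part of such cells in these results was not tested. In TLR7 72 h the B cell marker Ms4a1 (CD20) averaged 0.0112 CPM, against 6.44 CPM in TLR2 72 h and 2.18 CPM in OVA 72 h.

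Mcl1, a short-lived prosurvival protein that cells must keep making, led the family per kilobase in all 3 groups at 72 h. It measured 233, 259, 298 and 253 CPM in TLR7 72 h, 342, 378, 401 and 415 CPM in TLR2 72 h, and 247, 349, 437 and 337 CPM in OVA 72 h. The TLR7 libraries lay under all TLR2 libraries and overlapped those of OVA. The log2 fold change against TLR2 was -0.56 (SE 0.18, adjusted p = 0.0715) and against OVA -0.39 (SE 0.18, adjusted p = 0.250), neither past the threshold. The difference from TLR2 passed with only these 2 groups in the fit, at -0.56 (adjusted p = 0.0105), where 3302 of 13304 genes did. It also passed with no scaling beyond library size, at -0.57 (adjusted p = 0.0436), where 903 of 14560 genes did. With Bcl2l11 and Bcl2a1b, Mcl1 made 3 of 10 members without overlap between TLR7 and TLR2 at 72 h, where 23.7% of all genes had none.

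Bcl2 lies on chromosome 1 (GRCm38, 106538178 to 106714274, minus strand) and was highest where Bcl2l11 was lowest. It measured 411, 483, 315 and 415 CPM in TLR7 72 h, 165, 340, 157 and 180 CPM in TLR2 72 h, and 305, 338, 153 and 179 CPM in OVA 72 h. The TLR7 mean was the highest of the 6 groups, but TLR2 72 h replicate 2 and OVA 72 h replicate 2 lay above the lowest TLR7 library. The differences, 0.95 against TLR2 (SE 0.42, adjusted p = 0.161) and 0.74 against OVA (SE 0.42, adjusted p = 0.369) on the log2 scale, did not pass. Against TLR2 the value was 0.29 without the middle libraries, which leaves 1 TLR2 72 h library. With only these 2 groups in the fit it passed, at 0.94 (adjusted p = 0.0241), where 3302 of 13304 genes did.

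Bcl2l1, which encodes BCL-XL, was at 154, 133, 139 and 133 CPM in TLR7 72 h, 166, 96.2, 161 and 159 CPM in TLR2 72 h, and 132, 66.6, 42.4 and 153 CPM in OVA 72 h. The groups overlapped, and the OVA libraries were the most spread. The log2 fold change in TLR7 against OVA was 0.50 (SE 0.29, adjusted p = 0.375; 0.82 without the middle libraries, adjusted p = 0.148) and in TLR2 against OVA 0.56 (SE 0.29, adjusted p = 0.448).

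The effectors were called in none of the 9 comparisons of 2 groups by edgeR. Bax ran from 76.2 to 103 CPM in TLR7 72 h, 59.0 to 81.2 CPM in TLR2 72 h and 48.0 to 92.0 CPM in OVA 72 h, and at 24 h from 65.3 to 119 CPM in TLR7, 41.2 to 94.9 CPM in TLR2 and 83.0 to 95.5 CPM in OVA. Bak1 averaged 69.0 ± 0.476 CPM in TLR7 72 h, 65.3 ± 3.25 CPM in TLR2 72 h and 67.6 ± 10.6 CPM in OVA 72 h, and at 24 h 71.8 ± 9.55 CPM in TLR7, 65.6 ± 5.60 CPM in TLR2 and 66.5 ± 5.96 CPM in OVA (SD, n = 4 each). The largest difference of either gene in these comparisons was -0.33 for Bax in OVA at 72 h against 24 h (SE 0.23, adjusted p = 0.264).

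**Figure D2:**
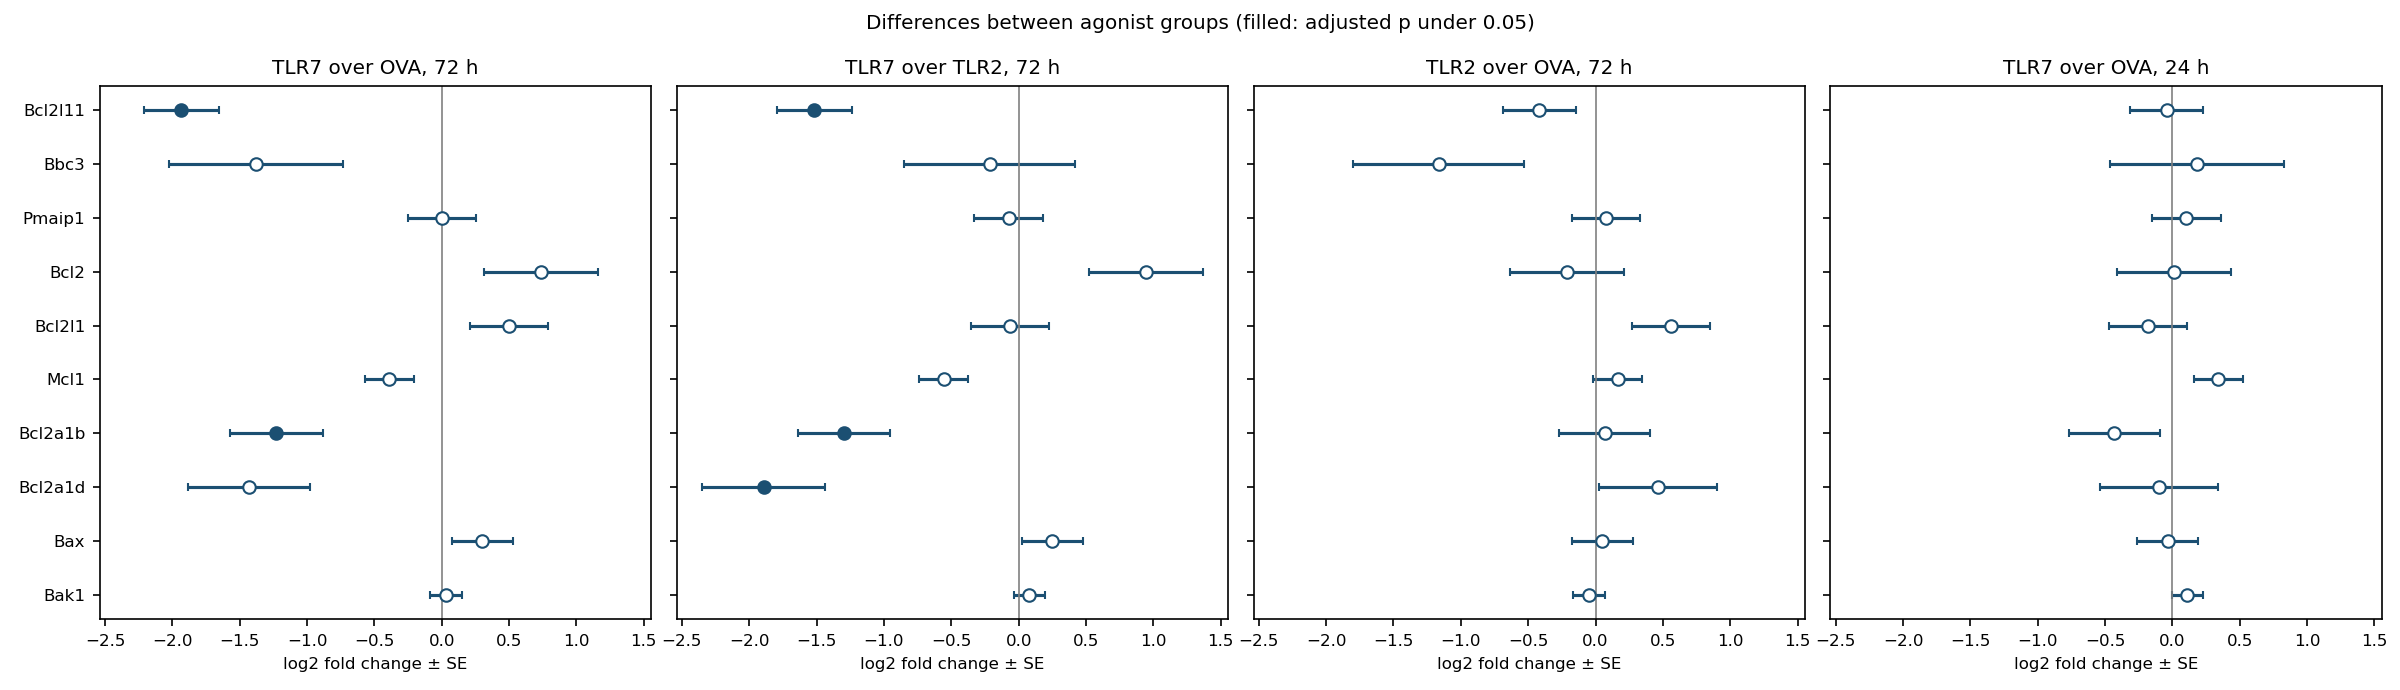
Log2 fold change with its standard error for each member between agonist groups at 72 h, and for TLR7 over OVA at 24 h; filled points have an adjusted p under 0.05 in edgeR. Bcl2l11 is at -1.93 over OVA and -1.52 over TLR2 at 72 h and at -0.04 over OVA at 24 h.

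The times were also compared within each agonist group. In TLR7, 5 of 10 members differed between 72 h and 24 h, against 43.2% of all genes: Bcl2 rose, and Bcl2l11, Mcl1, Bcl2a1b and Bcl2a1d fell. In TLR2, 3 of 10 did, against 39% of all genes: Bcl2, Bbc3 and Pmaip1 rose. In OVA, 2 of 10 did, against 18.6% of all genes: Bbc3 rose and Bcl2l1 fell. These shares of members stood near or below those of all genes. The times did not overlap for 5 members in TLR7, 6 in TLR2 and 1 in OVA, beside 48.5%, 51.1% and 10.6% of all genes.

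With the TLR7 agonist, Bcl2 was 411, 483, 315 and 415 CPM at 72 h, against 72.0, 86.8, 185 and 174 CPM at 24 h. The libraries did not overlap, and the log2 fold change was 1.65 (SE 0.43, adjusted p = 0.00601). Bcl2a1b averaged 32.1 ± 6.84 CPM at 72 h and 101 ± 14.5 CPM at 24 h, Bcl2a1d 11.3 ± 5.05 CPM and 64.1 ± 16.8 CPM, and Mcl1 261 ± 27.1 CPM and 468 ± 93.9 CPM (SD, n = 4 each). Their log2 fold changes were -1.65 (adjusted p = 0.00174), -2.49 (adjusted p = 0.000994) and -0.84 (adjusted p = 0.00214), and that of Bcl2l11 was -1.48 (adjusted p = 0.000965). These 5 calls held when any 1 library was left out. The B cell markers without Ighm were lower at 72 h as well, as given above, and their part in the A1 values was not tested. Without the shallow libraries, which leaves 2 of 4 at 72 h and 3 of 4 at 24 h, 0 members passed, in a fit that called 5 of 14949 genes, with Bcl2 at 1.35 (adjusted p = 0.122) and Bcl2l11 at -1.26 (adjusted p = 0.0813).

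With the TLR2 agonist, Bcl2 was 165, 340, 157 and 180 CPM at 72 h, against 55.4, 83.4, 53.2 and 63.7 CPM at 24 h, a log2 fold change of 1.72 (SE 0.43, adjusted p = 0.00932). Bcl2l11 was at 0.03 (SE 0.27, adjusted p = 0.933). Bcl2a1b fell short of the threshold with no overlap between the times, at -0.84 (adjusted p = 0.0530), as did Bcl2a1d at -0.97 (adjusted p = 0.0824). Without the middle libraries, which leaves 1 library at 72 h that is assumed to vary like the other groups, 5 members passed, the 2 A1 genes among them at -1.65 and -2.45 (adjusted p = 0.00379 and 0.00251). That fit called 6858 of 15815 genes.

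With peptide alone, Bcl2l1 was 132, 66.6, 42.4 and 153 CPM at 72 h, against 178, 241, 189 and 225 CPM at 24 h, with no overlap, and fell by 1.08 on the log2 scale (SE 0.29, adjusted p = 0.0333). Both OVA calls, Bcl2l1 and Bbc3, were lost without OVA 72 h replicates 1, 2 or 3 or OVA 24 h replicates 2 or 4. In the same order, those fits called 118, 0, 3, 1 and 0 of all genes tested, against 2709 with all libraries. Adjusted p was 0.0570 to 0.122 for Bcl2l1 and 0.0587 to 0.209 for Bbc3. Without OVA 72 h replicate 3 the log2 fold change of Bbc3 was 0.99. Leaving out OVA 24 h replicate 1 or 3 or OVA 72 h replicate 4, all middle libraries, added calls for Bcl2a1b (-1.06 to -1.21) and Bcl2a1d (-1.34 to -1.62). Leaving out OVA 24 h replicate 3 also added 1 for Bcl2 (1.33). In the same order, those 3 fits called 4350, 2895 and 4709 of all genes tested. Without all the middle libraries, 6 members passed, in a fit that called 7673 of 15815 genes, with Bcl2 at 2.39 (adjusted p = 2.94e-05), Bcl2a1b at -1.69 (adjusted p = 0.000184) and Bcl2l11 at 0.23 (adjusted p = 0.629).

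**Figure D3:**
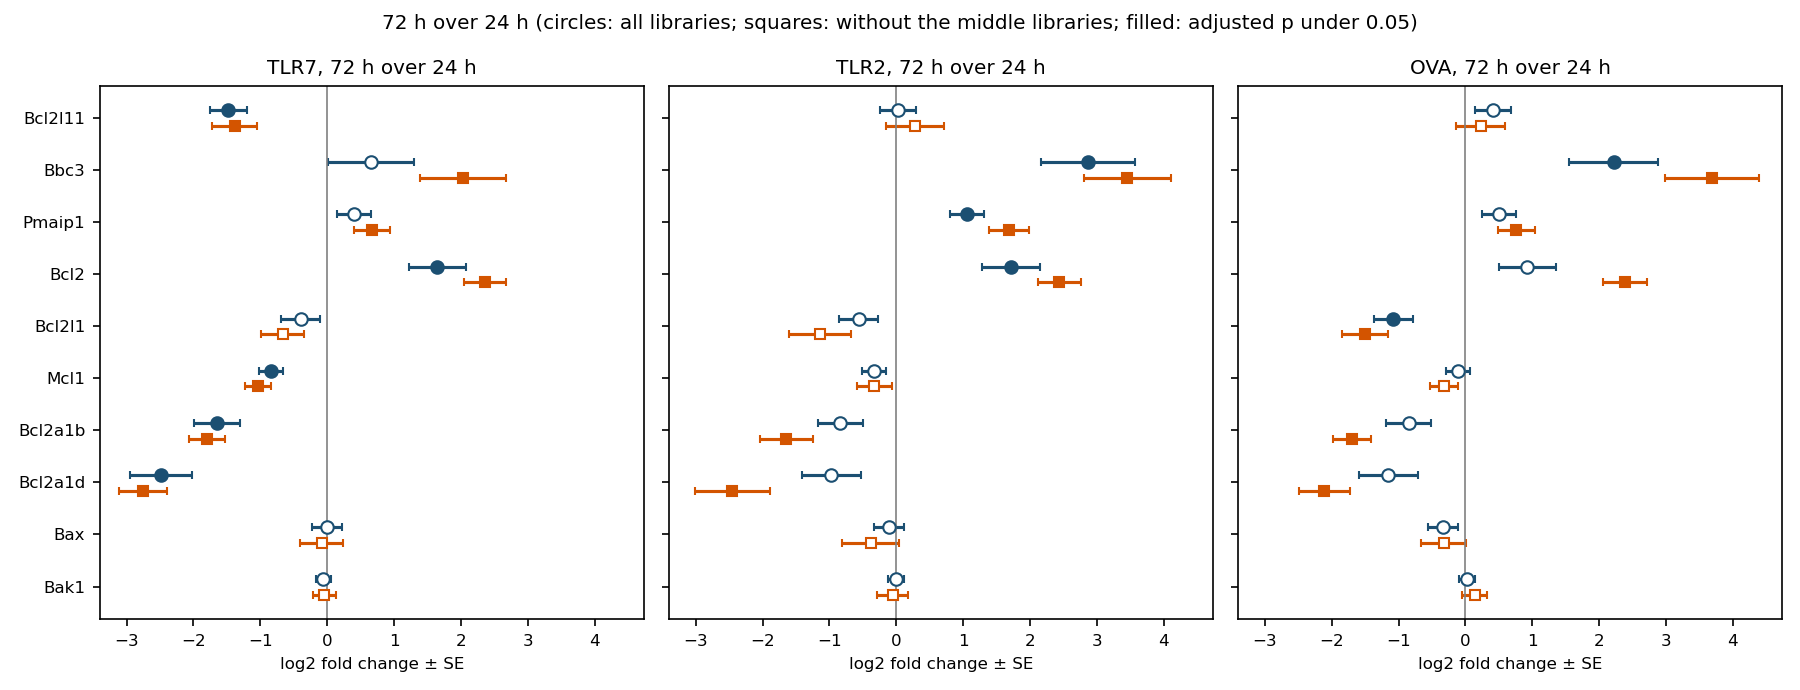
Log2 fold change at 72 h over 24 h with its standard error, by agonist; circles use all 24 libraries, squares leave out the 8 middle libraries, and filled points have an adjusted p under 0.05 in edgeR. Without the middle libraries Bcl2 is at 2.36 in TLR7, 2.44 in TLR2 and 2.39 in OVA, while Bcl2l11 is at -1.38, 0.28 and 0.23.

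The ratio of Bcl2 to Bcl2l11, a prosurvival protein and the sensor it binds, was taken per library after the values of both were seen and is given as a description. It was 15.8, 18.6, 6.47 and 18.2 in TLR7 72 h, 1.70, 3.29, 2.07 and 2.31 in TLR2 72 h, and 5.42, 2.71, 0.839 and 1.65 in OVA 72 h. At 24 h it ran from 0.967 to 2.18 in TLR7, 0.569 to 0.948 in TLR2 and 0.447 to 3.63 in OVA. All 4 TLR7 72 h libraries had a higher ratio than the other 20. The ratio is of CPM, so its size also depends on the lengths of the 2 transcripts, while its order among libraries does not.

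**Figure D4:**
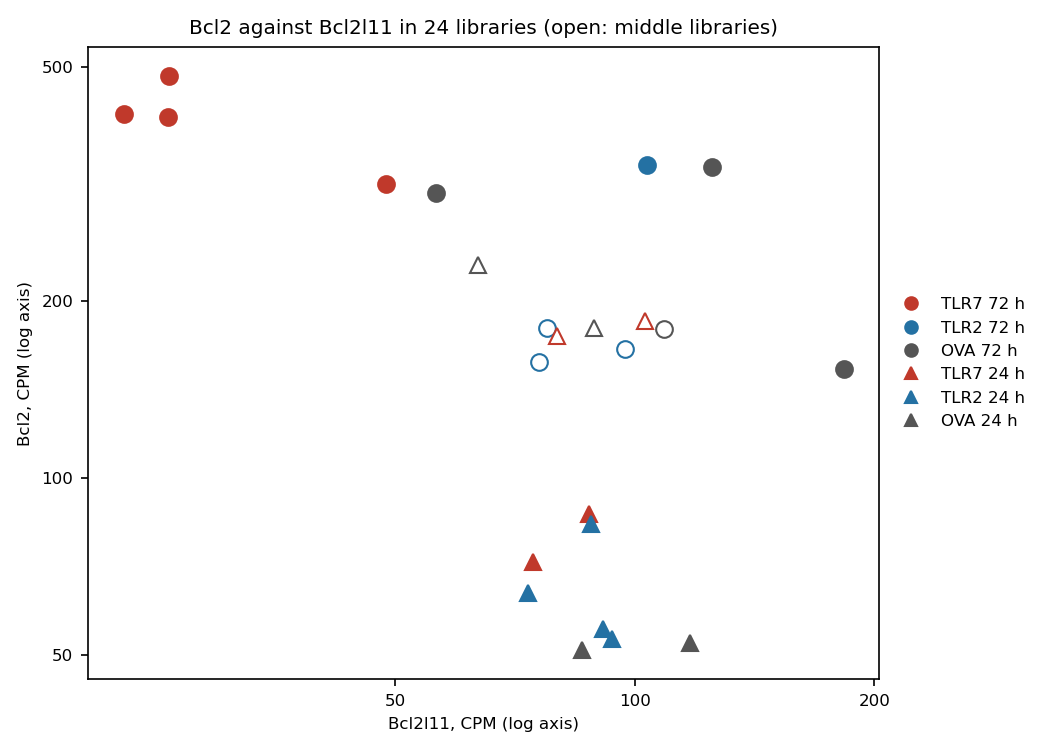
Bcl2 against Bcl2l11 in each of the 24 libraries, in CPM on log axes; circles are 72 h, triangles 24 h, colours the agonist group, and open symbols the middle libraries. The 4 TLR7 72 h libraries lie at the upper left, with Bcl2 at 315 to 483 CPM and Bcl2l11 at 22.8 to 48.7 CPM.

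Beyond the 10 members, 75 genes of the wider pathway were followed, of which 71 passed the filter. In TLR7 against OVA at 72 h, 3 of the 71 were lower and 0 higher, beside 3.21% of all genes called lower. They were Bcl2l14, a little-expressed family member (0.376 ± 0.298 CPM in TLR7, 1.44 ± 0.663 CPM in OVA, log2 fold change -1.83, adjusted p = 0.0450), Birc3, the ubiquitin ligase cIAP2 (62.6 ± 5.41 and 96.8 ± 35.2 CPM in the same groups, -0.63, adjusted p = 0.0415), and Bcl2l13, a mitophagy receptor of the family (55.2 ± 2.96 and 70.8 ± 5.52 CPM, -0.36, adjusted p = 0.0341; SD, n = 4 each). None of the 3 passed without the middle libraries or without the shallow ones. Beside a median log2 fold change of -0.08 over all genes, the medians were -0.37 for 7 inhibitors of apoptosis, -0.15 for 9 genes of the mitochondrial pore and of Mcl1 turnover, -0.07 for 13 of the death receptor pathway, -0.07 for 16 transcription factors of the family's genes, 0.00 for 13 of the apoptosome and caspases and 0.04 for 13 other family members.

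At 24 h, 1 of the 71 differed in TLR7 against OVA, beside 0.22% of all genes: Cflar, which encodes cFLIP, the inhibitor of caspase-8. It measured 251, 302, 167 and 185 CPM in TLR7 24 h, against 114, 102, 93.3 and 106 CPM in OVA 24 h. No TLR7 library fell within the OVA range, and the log2 fold change was 1.13 (SE 0.20, adjusted p = 0.0283). It was 1.47 without the middle libraries (adjusted p = 0.00884), and without the shallow ones 0.97 (adjusted p = 0.789). The call held in 9 of 17 alternatives. It was lost with only these 2 groups in the fit (adjusted p = 0.0967). It was also lost without TLR7 24 h replicates 1 or 2 or any 1 OVA 24 h library (0.96 to 1.18, adjusted p of 0.0552 to 0.124). Those fits called 0 to 6 of all genes tested, against 32 with all libraries. In TLR7 against TLR2 at 24 h, Cflar (0.92, adjusted p = 0.0254) and Ddit3, which encodes the stress factor CHOP (2.96, adjusted p = 0.0401), were higher, 2 of 71, beside 1.24% of all genes. Ddit3 was 6.59, 5.43, 52.0 and 40.5 CPM in the TLR7 24 h libraries, against 3.12 to 3.58 CPM in TLR2, the 2 high values being those of the middle libraries; without them its log2 fold change was 0.90 (adjusted p = 0.0262).

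At 72 h, Cflar was lower in TLR7 than in TLR2, at 86.2 ± 15.2 CPM in TLR7 and 149 ± 34.0 CPM in TLR2 (SD, n = 4 each; -0.79, adjusted p = 0.0301). Rel, an NF-kB subunit known to drive Bcl2l1 and Bcl2a1 genes (-1.64, adjusted p = 0.0183), Stat5a, which carries signals of IL-2 and other cytokines (-0.91, adjusted p = 0.0216), and the death receptor Tnfrsf10b (-0.87, adjusted p = 0.0154) were also lower. Casp8 (0.60, adjusted p = 0.0343), Ripk3, a kinase of necroptosis (0.54, adjusted p = 0.0444), and the transcription factor Cebpb (4.80 CPM in TLR7, 2.09 CPM in TLR2, adjusted p = 0.0385) were higher. That is 4 lower and 3 higher of 71, beside 4.8% of all genes. None of the 7 passed without the middle libraries or without the shallow ones, 2 fits in which edgeR called 0 of all genes. The log2 fold change without the middle libraries was -0.70 for Rel, -0.37 for Stat5a, -0.96 for Tnfrsf10b and -0.89 for Cflar, and 0.39 for Casp8, 0.79 for Cebpb and 0.53 for Ripk3. The TLR7 effect at 72 h minus that at 24 h was past the threshold for 2 of the 71, beside 0.81% of all genes, named here after their values were seen: Cflar (-1.27, adjusted p = 0.0398) and Birc3 (-1.02, adjusted p = 0.0452). The call held in 10 of 25 alternatives for Cflar and in 7 of 25 for Birc3; without the shallow libraries the values were -1.08 (adjusted p = 0.519) and -0.95 (adjusted p = 0.544). Leaving out 1 library ended the call for Cflar except for OVA 72 h replicate 1, TLR7 72 h replicate 3 and TLR7 24 h replicates 3 and 4 (-1.11 to -1.29, adjusted p of 0.0505 to 0.129). It ended the call for Birc3 except for OVA 72 h replicates 1 and 4, TLR7 72 h replicate 3 and TLR7 24 h replicate 4 (-0.75 to -1.05, adjusted p of 0.0552 to 0.126). The fits that ended a call called 0 to 85 of all genes tested, against 118 with all libraries.

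Between the times, 36 of the 71 genes differed in TLR7 (15 higher and 21 lower at 72 h), 30 in TLR2 (16 higher and 14 lower) and 18 in OVA (6 higher and 12 lower), beside 43.2%, 39% and 18.6% of all genes. In TLR7, Bnip3 (2.13), a hypoxia-induced BH3 protein, Birc5 (1.69), the mitotic protein survivin, the sensor Bad (1.49) and Casp6 (1.46) rose most, and Rel (-2.22), Bcl2a1c (-1.90), Stat5a (-1.74) and Bcl2l14 (-1.46) fell most. In TLR2, the heat shock gene Hspa1b (5.94), Ddit3 (3.80), Bnip3 (3.06) and the BH3-only sensor Bmf (2.37) rose most, and E2f1 (-1.26), Ppif (-1.09), Cycs, which encodes cytochrome c (-0.94), and Aifm1 (-0.92) fell most. In OVA, Bmf (1.77), Tnfaip3, which encodes the NF-kB inhibitor A20 (1.49), Stat3 (1.14) and Stat5b (1.14) rose most, and Ppif (-1.31), Bcl2a1c (-1.21), Rel (-1.01) and E2f1 (-1.01) fell most. All are log2 fold changes with an adjusted p under 0.05 by edgeR. These genes kept their direction without the middle libraries, and Bcl2l14 in TLR7 was the one that no longer passed, at -0.77 (adjusted p = 0.321). Most values were larger there, such as 4.32 for Bnip3 in TLR7, -2.04 for Cycs and -1.93 for Aifm1 in TLR2 and 2.20 for Stat3 in OVA. The call of Bnip3 in TLR7 (adjusted p = 0.0497) held in 7 of 17 alternatives. Without the shallow libraries none of those named in TLR7 or OVA passed, and in TLR2 Ppif, Cycs and Aifm1 did not (adjusted p = 0.0569, 0.0937 and 0.0590). That fit called 5 of 14949 genes in TLR7, 0 in OVA and 2847 in TLR2. Some levels were low. In TLR7, Bcl2a1c averaged 0.298 CPM at 72 h and 1.17 CPM at 24 h, and Bcl2l14 averaged 0.376 and 1.09 CPM. In OVA, Bcl2a1c averaged 0.485 CPM at 72 h and 1.15 CPM at 24 h. Hspa1b averaged 0.548 CPM in TLR2 24 h and 33.9 CPM in TLR2 72 h.

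Among 9167 genes of at least 5 CPM on average, those whose log2 CPM followed each member most closely over the 24 libraries were taken by Pearson's r, as a description; all 24 share the group means and the split on the first principal component. Bcl2l11 was followed by Igf1r, the receptor of insulin-like growth factor 1 (0.97), Tbc1d4 (0.95) and Zfp36l1 (0.94), and Bcl2 by Ppp3cc (0.99), Ogt (0.98) and Phc3 (0.98). Bcl2a1b had Fh1, Blmh and Xrcc5 (0.97 each) and Bcl2a1d had Xrcc5, Gdf11 and Blmh (0.98 each), so both A1 genes shared 2 of 3. Mcl1 had Ythdc1 (0.97), Rsrc2 (0.96) and Prpf38b (0.96), Bcl2l1 had Ampd2 (0.97), Prmt7 (0.96) and Scarb1 (0.96), and Bbc3 had Gltscr1 (0.98), Tmem63a and Tcp11l2 (0.97 each). Pmaip1 had Birc2 (0.95), Pnrc2 (0.93) and Scarb2 (0.92), and Bax had Slc39a7 (0.93), Timm13 (0.93) and Wiz (0.92). For Bak1 the closest gene reached 0.72, with Ctsz.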

How the data were processed

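Poly-A RNA of 24 libraries was sequenced with a stranded kit, per the labels' protocols. The authors deposited expected counts per gene, 1 table per library; 28.7% of the values above 0 are not whole. The submitters' processing notes name STAR, RSEM, edgeR and build GRCm38; no version or strand setting of the counting is given there, so genes that overlap another (Bak1, Bax, Bcl2, Bcl2a1b, Bcl2a1d) are uncertain. The labels do not say whether replicates are separate mice or cultures, so p-values reflect only how these samples vary, and that variation may be technical. No 2 libraries of the same group agreed within sampling noise (smallest chi-square per degree of freedom 4.58).

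Counts were rounded and fitted in edgeR 4.0.16 (R 4.3.3; TMM; filterByExpr, minimum count 10 and total 15; quasi-likelihood F test) with all 24 libraries and 1 term per group. Benjamini-Hochberg adjustment ran over 14560 genes, with a threshold of 0.05. There were 9 comparisons of 2 groups, 2 differences of agonist effects between times and 1 test over the 6 groups. The fit was tested on simulated data, with genes drawn independently and changes set in TLR7 72 h only. Those data lack the split of libraries on the first principal component, so the test cannot show how calls behave under it. A count of 3 is 0.110 to 0.286 CPM, which covers counting error only. Promoters are from RefSeq on GRCm38.p6, which matched 9 members; coding sequences and exon lengths are from GENCODE on GRCm38. Members and gene lists were chosen with earlier results of these data known. Named pathway genes are, per comparison, up to 4 per direction past the threshold with the largest log2 fold changes and at least 1 CPM in either group. Alternatives were RLE and no scaling, no filter and a stricter one (1 CPM in 4 libraries), a replicate block, DESeq2 1.42.0, only the groups compared, each library left out, and, chosen after seeing the data, no middle and no shallow libraries.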

Additional observations from a re-analysis of the deposited data

Results flagged for a closer look

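In 7 of the 60 groups of 4 libraries (10 members in 6 groups), the highest or lowest library stood apart from the rest by Dixon's 95% criterion, where chance gives about 1 in 20. In TLR2 72 h, replicate 2 stood apart for 3 members, at 340 CPM for Bcl2, 96.2 CPM for Bcl2l1 and 44.2 CPM for Bcl2a1b; it is the only library of its group that is not a middle library. The others were Bcl2l11 at 48.7 CPM in TLR7 72 h replicate 3, Bbc3 at 57.7 CPM in OVA 72 h replicate 3, Pmaip1 at 15.5 CPM in TLR2 24 h replicate 2, and Bak1 at 69.7 CPM in TLR7 72 h replicate 4, where the other 3 libraries lie within 68.7 to 68.8 CPM. The TLR7 effect on Bcl2l11 differed between the times by a test of the difference itself, at -1.89 on the log2 scale for 72 h minus 24 h.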

How the results depend on the processing

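Of the values recomputed for single genes under an alternative, 2338 kept their side of the threshold, 292 lost it and 27 gained it; the sign changed in 157 that passed in neither fit and in 0 that passed in either. For counts of members called, 187 stayed within 1.5 times and 48 did not. In TLR7 against OVA at 72 h (2 called), 1 was called with RLE scaling, with no filter, with the replicate block and without the middle libraries, 0 without the shallow libraries and with only the groups compared, and 1 to 3 with a library left out. In TLR7 against TLR2, DESeq2 called 1 at 24 h (0 in edgeR); at 72 h (3 called), 0 were called without the middle libraries, 0 without the shallow ones, 5 with only the groups compared, and 0 to 3 with a library left out. In OVA at 72 h against 24 h (2 called), DESeq2 called 4, the fit without the middle libraries 6, those without the shallow libraries and with only the groups compared 0, and those with a library left out 0 to 5. In TLR2 at 72 h against 24 h (3 called), 5 were called without the middle libraries and 5 with only the groups compared. In TLR7 at 72 h against 24 h (5 called), 0 were called without the shallow libraries. For the TLR7 effect at 72 h minus 24 h (1 called), 0 were called without the middle libraries, without the shallow ones and with only the groups compared, and 0 to 1 with a library left out. Over the 6 groups (8 called), 4 were called without the shallow libraries. The number of all genes called moved too. Without the shallow libraries it was 4519 of 14949 over the 6 groups and 5 in TLR7 between the times. It was 0 in TLR7 against OVA and against TLR2 at 72 h, in OVA between the times and for the TLR7 difference. With only the groups compared it was 29 of 13269 in TLR7 against OVA and 3302 of 13304 against TLR2 at 72 h. Between the times it was 0 of 13472 in OVA and 6532 of 13494 in TLR2. Leaving out samples leaves fewer to test; otherwise the cause was not tested. Deviations from the group means correlated at 0.02 on average between same-numbered libraries (-0.62 to 0.52 over 60 pairs) and at -0.01 between others. Such an average over all genes cannot exclude that replicate numbers pair the samples for single genes. With the replicate block, the SE of Bax in TLR2 against OVA at 24 h was 0.164, against 0.226 without it. No other count of members called moved with the block. With no scaling beyond library size, the median log2 fold change of all genes in TLR2 at 72 h against 24 h was 0.10, against -0.01 with TMM.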

Other observations

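Within the A1 pair, the share of Bcl2a1d in the CPM of Bcl2a1b and Bcl2a1d together, in which the division of reads between near-identical copies is uncertain, was 16.5% to 30.2% in TLR7 72 h, 25.2% to 39.5% in TLR2 72 h and 25.8% to 30.9% in OVA 72 h. At 24 h it was 35.7% to 41.1% in TLR7, 33.7% to 39.7% in TLR2 and 30.6% to 35.4% in OVA. In TLR7 the times did not overlap. Batf3, a transcription factor of dendritic cells that activated T cells also express, made up most of the summed dendritic cell markers in TLR7 72 h, 107 to 182 CPM, against 29.1 to 49.9 CPM in TLR2 72 h and 16.6 to 114 CPM in OVA 72 h, while 6 of the 8 markers averaged under 1 CPM over the libraries; the part of such cells in the results was not tested.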
